A study of Mus musculus with 2 samples.

Results

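The 41 genes described here drive the cell cycle or hold it back. They were taken as a list of symbols, grouped by role into 9 genes of G1, 10 of S phase, 15 of G2 and mitosis (M) and 7 inhibitors of the cycle, out of 55536 Ensembl genes measured. The mice were B6CASTF1/J females aged 4 days, first-generation hybrids of a C57BL/6J and a CAST/EiJ parent, and the tissue was the gastrocnemius muscle of the calf. There was 1 group of 2 libraries of total RNA, called biological replicates 1 and 2 in the labels. The animals are numbered 3 and 4, but both libraries carry a single donor record, so whether the animals were littermates is not known. Each library was made from 300 ng of RNA with reduced ribosomal RNA and with ERCC spike-in transcripts. No condition was compared with another, and the questions are which cycle genes this tissue expressed, in what proportions, and how far the libraries differed.

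A cell enters the cycle when D cyclins with Cdk4 and Cdk6, then E cyclins with Cdk2, phosphorylate the retinoblastoma protein and its relatives, which frees E2F factors to switch on the genes of DNA replication. Cyclins A and B with Cdk1 then carry the cell through G2 and mitosis. In skeletal muscle, myoblasts leave the cycle for good as they fuse into fibres, a step in which Cdk inhibitors and pocket proteins take part, while satellite cells and the cells of connective tissue, vessels and blood can still divide after birth.

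The gene tables held 30745756 expected counts over Ensembl genes in replicate 1 and 35977559 in replicate 2, where an expected count is an estimate of the reads from a gene that need not be whole. Levels are in TPM, a transcript abundance scaled for length and depth, and means are given ± SD (n = 2). An exact two-sided permutation test of 2 values against 2 cannot give a p below 0.333, and 1 library against 1 allows no test, so no p is given, and error is judged from how far the libraries lie apart. The tissue label was met by 6 of 6 muscle fibre markers, with summed levels of 35335 and 41849 TPM in replicates 1 and 2. Other tissues differed between the libraries. The summed level of 7 red cell markers was 1236 TPM in replicate 1 and 230 TPM in replicate 2, that of 7 neutrophil and marrow markers was 73.9 and 13.8 TPM, and that of 5 tendon markers was 248 and 125 TPM. Bone and cartilage markers summed to 23.1 and 4.40 TPM, with 3 of 7 (Ibsp, Mmp13 and Col10a1) at 0 counts in replicate 2. In contrast, 5 liver markers summed to 7.41 TPM in replicate 1 and 80.5 TPM in replicate 2.

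All 41 members were detected, meaning at least 1 TPM in both libraries, as were 24.0% of all Ensembl genes and 54.8% of protein-coding genes. Their mean levels ran from 3.70 TPM (Bub1) to 110.1 TPM (Ccnd3), and 28 of 41 lay above the median detected gene, at 9.40 TPM. Together they summed to 806 TPM in replicate 1 and 813 TPM in replicate 2. The median coefficient of variation over the 2 libraries was 4.65%, and the highest was 15.1% (Cdkn1b). In the order of mean levels, 18 of the 40 neighbouring pairs had ranges over the 2 libraries that did not overlap. Since this is bulk RNA, more cells of a dividing type and more RNA per cell cannot be told apart.

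**Figure D1:**
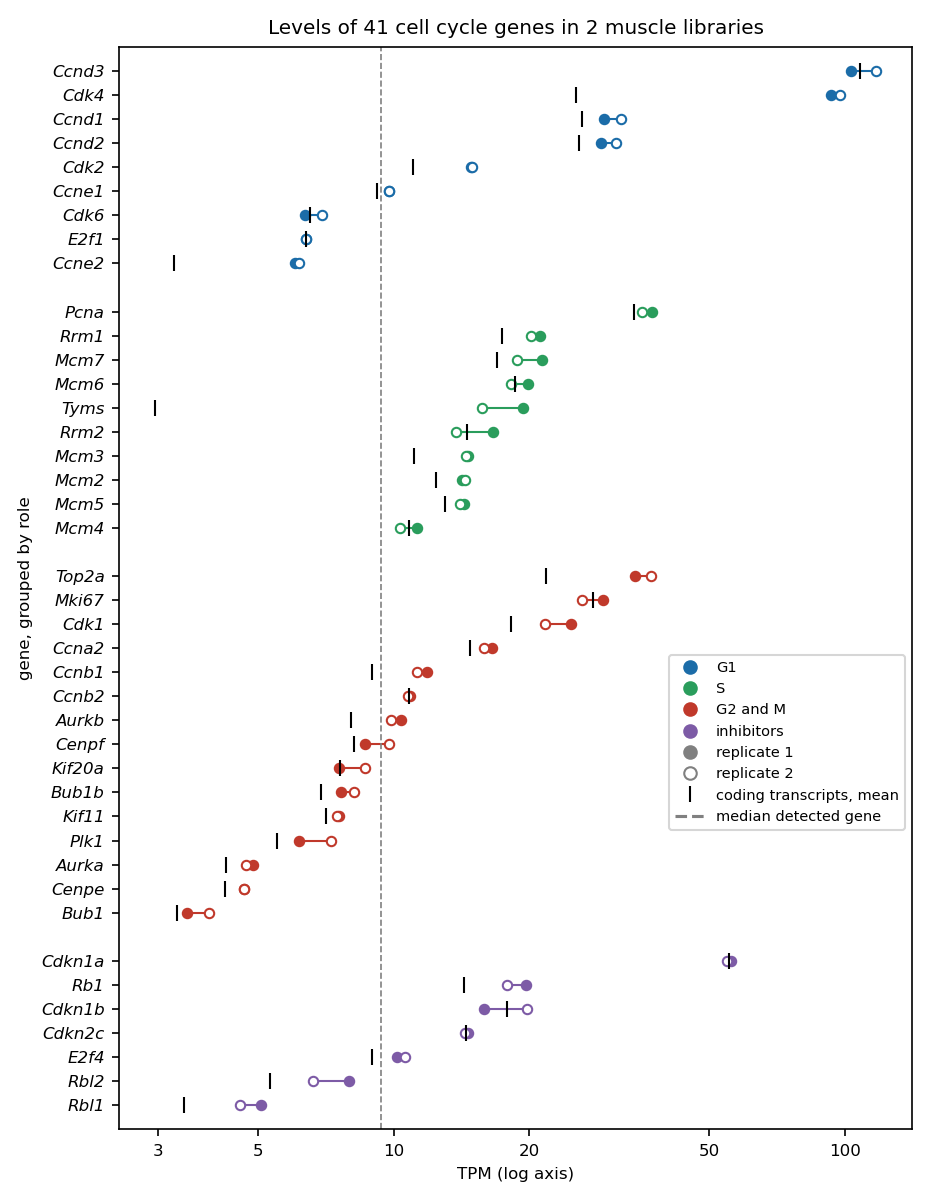
TPM of each of the 41 genes on a log axis, with replicate 1 as a filled and replicate 2 as an open circle, grouped by role. Black ticks mark the mean TPM of protein-coding transcripts alone and the dashed line marks the median detected gene (9.40 TPM); Ccnd3 stands at 103 and 117 TPM, and Cdk4 and Tyms have their coding tick far to the left of their circles.

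The G1 genes were led by a D cyclin and its kinase. Ccnd3, cyclin D3 (chr17:47505051-47599691 on the plus strand of mm10), had 103 TPM in replicate 1 and 117 TPM in replicate 2 (110.1 ± 10.05). Ccnd1 had 29.3 and 31.9 TPM, and Ccnd2 had 28.9 and 31.2 TPM. The ranges of Ccnd1 and Ccnd2 overlapped, while Ccnd3 stood above both in each library, 3.57 times Ccnd2 in replicate 1 and 3.76 times in replicate 2. Ccnd3 thus held 64.5 ± 0.794% of the summed D cyclin TPM, and 49.4% of the D cyclin counts, which are not corrected for transcript length.

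Cdk4, a kinase partner of the D cyclins (chr10:127063534-127067920, plus strand), had 93.2 and 97.6 TPM (95.4 ± 3.14) against 6.37 and 6.94 TPM for its relative Cdk6. The transcript tables qualify this gap. The leading Cdk4 transcript is a 468 nt model annotated as a retained intron, and it took 39.2 ± 1.32% of the gene's TPM. Protein-coding transcripts held 26.5 ± 5.96%, or 20.8 and 30.02 TPM, which moved Cdk4 from rank 2 to rank 7 of the 41. By coding transcripts Cdk4 held 79.2% of the Cdk4 and Cdk6 sum, and by all transcripts 93.5 ± 0.169%. Cdk4 also overlaps Tspan31 on the opposite strand, which had 588 and 685 counts against 1959 and 2397 for Cdk4, and reads of the pair cannot be told apart unless counting used strand, which the sources used here do not give. The same holds for the 10 members that overlap a gene with at least 10% of their counts, among them Ccnd3 (Bysl, 10.5%), Ccnd1 (LTO1, 13.2%), Cdk2 (Pmel, 12.1%) and Ccna2 (Exosc9, 36.9%).

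The later G1 genes were lower. Cdk2, the partner of cyclins E and A, had 14.8 and 14.9 TPM. Ccne1, cyclin E1, had 9.79 and 9.76 TPM, and Ccne2, cyclin E2, had 6.06 and 6.16 TPM. E2f1, an activator of replication genes, was at 6.39 TPM in both libraries. These values differed by little between libraries and none of the E cyclin or E2f1 levels reached the lowest D cyclin. For Ccne2 the leading transcript is a 432 nt noncoding model that took 45.4 ± 7.70% of its TPM and was at 0 in the other quantification, and the gene overlaps Ints8, which had 259% of its counts on the opposite strand.

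The S phase genes spanned the narrowest range of the 4 classes. Their medians in replicates 1 and 2 were 18.0 and 15.1 TPM. Every mean lay between 10.8 TPM (Mcm4) and 36.5 TPM (Pcna). Pcna, the sliding clamp of the replication fork, had 37.4 and 35.5 TPM. Its processed pseudogene Pcna-ps2 had 115 and 110.2 expected counts against 1430 and 1558 for Pcna, so a part of these reads is uncertain.

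Mcm2 to Mcm7 encode the subunits of a hexameric helicase in which each subunit occurs once. Mcm7 had 21.3 and 18.8 TPM and Mcm6 had 19.9 and 18.2 TPM, with ranges that overlapped. Mcm3 had 14.6 and 14.5 TPM, Mcm2 had 14.2 and 14.4 TPM, and Mcm5 had 14.4 and 14.01 TPM. Mcm4 was lowest, with 11.3 and 10.3 TPM. Mcm7 was thus 1.89 times Mcm4 in replicate 1 and 1.81 times in replicate 2. In the other quantification Mcm7 was 2.44 and 2.04 times Mcm4, and in its replicate 2 the lowest of the 6 was Mcm3, at 19.7 TPM. Mcm7 is the less certain of these, since it overlaps Ap4m1 and Cops6, which had 48.9% and 136% of its counts. By coding transcripts Mcm6 led the helicase genes with 22.4% of their sum, and Mcm7 held 20.4%.

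Of the genes that supply deoxynucleotides, Rrm1 and Rrm2 encode the large and the small subunit of ribonucleotide reductase. Rrm1 had 21.1 and 20.1 TPM and Rrm2 had 16.6 and 13.8 TPM, so that Rrm1 was 1.27 times Rrm2 in replicate 1 and 1.46 times in replicate 2. Tyms, thymidylate synthase, had 19.4 and 15.7 TPM. Protein-coding transcripts made up only 16.8 ± 0.688% of the Tyms TPM, the lowest share of the 41 genes, and its leading transcript (618 nt) is annotated as a target of nonsense-mediated decay. The other quantification gave the coding transcripts of Tyms 58.1%, so this share depends on the quantification.

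The G2 and M genes spanned a wider range and had the lowest class median, 8.65 TPM in replicate 1 and 9.75 TPM in replicate 2. The S phase median was 2.08 and 1.55 times as high in the same libraries. Top2a, the topoisomerase that untangles sister chromatids, had 34.4 and 37.1 TPM. Mki67, which coats mitotic chromosomes and is widely used as a mark of dividing cells, had 29.2 and 26.2 TPM from 8133 and 8279 counts, the most of any member. Coding transcripts held 61.2 ± 4.19% of the Top2a TPM, or 22.0 and 21.6 TPM. By coding transcripts Mki67 was thus above Top2a in both libraries. Cdk1, the mitotic kinase, had 24.7 and 21.6 TPM. These 3 genes stood above all others of the class in both libraries.

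Among the mitotic cyclins, Ccna2 had 16.5 and 15.9 TPM, Ccnb1 had 11.9 and 11.3 TPM, and Ccnb2 had 10.9 and 10.8 TPM. The B cyclins did not overlap by gene TPM, but their order was not stable. Ccnb1 held 51.7 ± 0.657% of their sum by gene TPM, 50.03% in the other quantification and 45.2% by coding transcripts alone. Cdk1 was 2.08 and 1.92 times Ccnb1 in replicates 1 and 2.

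The mitotic kinases and checkpoint genes were lower. Aurkb, the kinase of the chromosomal passenger complex, had 10.4 and 9.87 TPM, and Aurka, the kinase of the spindle poles, had 4.87 and 4.72 TPM, a ratio of 2.14 and 2.09. Plk1, a kinase of mitotic entry and exit, had 6.16 and 7.25 TPM. Of the spindle checkpoint genes, Bub1b had 7.64 and 8.16 TPM and Bub1 had 3.49 and 3.90 TPM. In each pair the higher gene was the same in both libraries and in the other quantification.

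The spindle motors and centromere proteins lay in the same low range. Kif11, the motor that separates the spindle poles, had 7.58 and 7.51 TPM. Kif20a, a motor of cytokinesis, had 7.58 and 8.64 TPM, but it overlaps Cdc23 on the opposite strand, which had 155% of its counts. The kinetochore genes Cenpf and Cenpe had 8.65 and 9.75 TPM and 4.67 and 4.65 TPM. Cenpf exceeded Cenpe in both libraries.

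Among the inhibitors, Cdkn1a (p21; chr17:29090976-29100727, plus strand) was highest, with 56.1 and 54.9 TPM (55.5 ± 0.820), rank 3 of the 41 genes by mean level. Cdkn1b (p27) had 15.9 and 19.7 TPM, and Cdkn2c (p18, an inhibitor of Cdk4 and Cdk6) had 14.6 and 14.4 TPM. The ranges of Cdkn1b and Cdkn2c did not overlap, and Cdkn1a exceeded Cdkn1b 3.53 times in replicate 1 and 2.79 times in replicate 2. Coding transcripts held 99.9% of the Cdkn1a TPM and 100% of the Cdkn1b and Cdkn2c TPM.

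The pocket proteins bind and silence E2F factors. Rb1 had 19.7 and 17.8 TPM, Rbl2 (p130) had 7.97 and 6.62 TPM, and Rbl1 (p107) had 5.08 and 4.57 TPM. Rb1 thus held 60.8 ± 0.900% of their sum, and none of the 3 ranges overlapped another. Rbl2 overlaps Aktip, with 87.1% of its counts, and Rb1 overlaps Rcbtb2 and Lpar6, with 53.6% and 14.1%. E2f4, an E2F that acts with pocket proteins in repression, had 10.2 and 10.6 TPM and was 1.59 and 1.66 times E2f1.

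Across 12 families of 2 to 6 genes, the leading gene by mean TPM was the same in the other quantification in 12 (though Ccnb2 exceeded Ccnb1 in its replicate 1), by coding transcripts in 10 and by counts in 10. The exceptions by coding transcripts were the B cyclins and the Mcm genes, and those by counts were Cdk2 over Cdk1 and Mcm6 over Mcm7. For 38 of the 41 genes the leading transcript was protein-coding (the exceptions are Cdk4, Ccne2 and Tyms), and for 34 it was the same in the other quantification. The median share of gene TPM in coding transcripts was 88.5%, beside 88.6% over 12064 detected protein-coding genes.

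**Figure D2:**
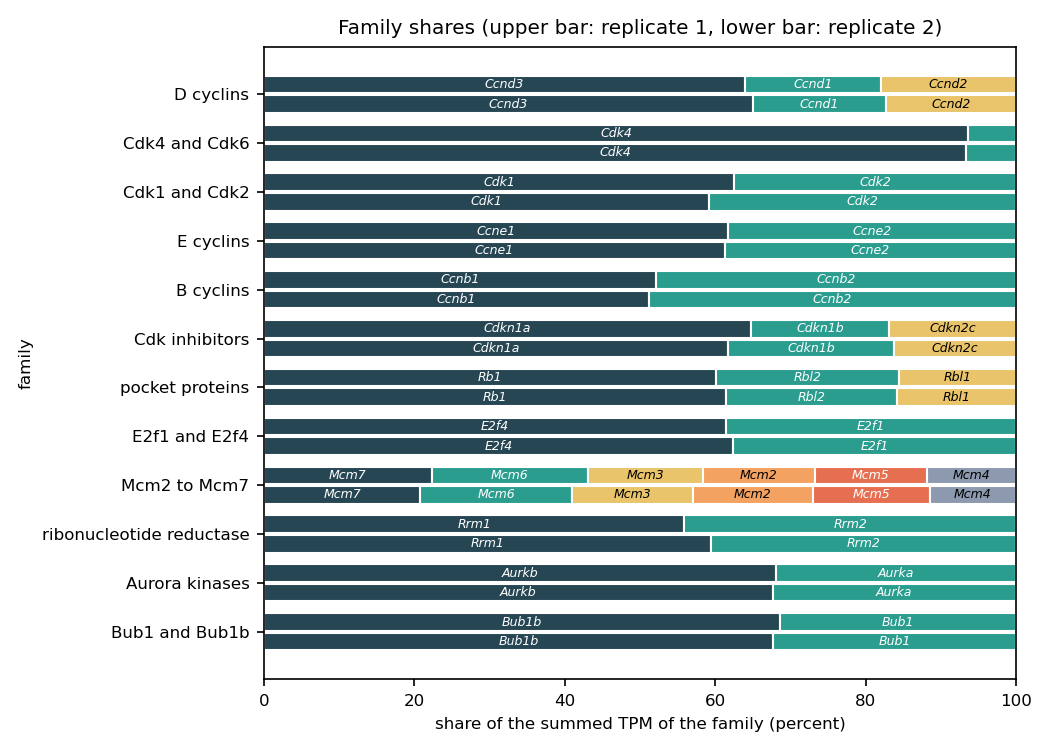
Share of each gene in the summed TPM of its family, in percent, for 12 families, with replicate 1 as the upper and replicate 2 as the lower bar of each pair. The bars of a pair are close to each other; Ccnd3 holds 63.9% and 65.0% of the D cyclins, and the B cyclins split nearly evenly.

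A further 98 cell cycle genes that are not among the 41 give the setting. Of these, 95 were detected, and the median over all 98 was 7.43 and 7.09 TPM in replicates 1 and 2, beside 14.4 and 14.01 TPM for the 41. The highest of the listed inhibitors was not a member. Cdkn1c (p57) had 617 and 716 TPM, 11.0 and 13.0 times Cdkn1a. Of the other listed inhibitors, Rbbp4, a chromatin partner of Rb1, had 58.7 and 69.1 TPM, and the antiproliferative gene Tob1 had 24.1 and 31.4 TPM. The range of Tob1 overlapped that of Btg1, at 29.3 and 25.4 TPM. The INK4 genes Cdkn2a and Cdkn2b were almost silent. Cdkn2a had 0.090 and 0.080 TPM from 2 counts in each library, and Cdkn2b had 0.25 and 0.17 TPM from 9 and 7 counts. In contrast, Cdkn2c had 719 and 797 counts, and Cdkn2d had 296 and 390 counts, at 8.25 and 9.27 TPM.

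The highest of the other G1 genes were the E2F partners Tfdp1, with 28.7 and 29.1 TPM, and Tfdp2, with 23.1 and 19.9 TPM, followed by Cks1b, with 15.4 and 17.2 TPM. In S phase they were Rpa1, which coats single-stranded DNA, with 26.5 and 25.4 TPM, the origin recognition gene Orc3, with 22.6 and 17.9 TPM, and thymidine kinase, Tk1, with 19.4 and 17.0 TPM. In G2 and M they were the checkpoint gene Bub3, with 19.6 and 21.2 TPM, and the cytokinesis genes Kif23, with 18.4 and 16.0 TPM, and Racgap1, with 16.0 and 16.7 TPM. Of the origin recognition genes, Orc1 was under the detection limit, at 0.95 and 0.54 TPM from 71 and 43 counts.

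Promoter sequence was then set beside the roles, since 2 kinds of element are textbook features of cycle genes: E2F sites in replication genes, and the CHR (cell cycle genes homology region) with CCAAT boxes in mitotic genes. RefSeq promoter windows (GRCm38.p6, 250 bases before to 50 after the start) were matched for 32 of the 41 genes and for 9683 detected genes, and 26 of the 32 starts lay within 100 bases of the start of the leading transcript. No window was matched for Ccnd1, Ccnd2, Ccne2, Mcm4, Ccna2, Aurkb, Kif20a, Rb1 and E2f4. The letters searched, on both strands, were TTTGAA and TTCGAA for CHR, CCAAT, and TTTGGCGC, TTTCGCGC, TTTCCCGC and TTTGGCGG for E2F. TTCGAA reads the same on both strands. Overlapping matches were each kept, such as TTTGGCGC and GCGCGAAA (the reverse complement of TTTCGCGC) around a shared GCGC.

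CHR letters were found in 10 of 12 G2 and M windows, 2 of 9 S windows, 0 of 6 G1 windows and 1 of 5 inhibitor windows, beside 13.1% of detected genes and 19.2% of all 32851 windows. CCAAT was in 12 of 12 G2 and M windows and 8 of 9 S windows, beside 38.8% of detected genes and 37.4% of all windows, but in only 2 of 6 G1 windows and 1 of 5 inhibitor windows. CHR and CCAAT occurred together in 10 of 12 G2 and M windows and in 5.65% of detected genes. E2F letters were in 4 of 9 S windows, 1 of 12 G2 and M windows, 1 of 6 G1 windows and 1 of 5 inhibitor windows, beside 4.63% of detected genes and 2.37% of all windows. With the bases before the start alone, CHR letters remained in 6 of 12 G2 and M windows and in 11.7% of detected genes, and CCAAT in 12 of 12 and 36.5%, and E2F letters in 3 of 9 S windows and 3.84%. The counts include windows far from the start of the leading transcript. The Mcm7 window, 539 bases away and in an exon, is among the S windows with CHR, CCAAT and E2F letters. Those of Cdk4 (2541 bases away), E2f1 (466) and Cdkn2c (433) held no match. These are counts of letters and no test was made of them.

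**Figure D3:**
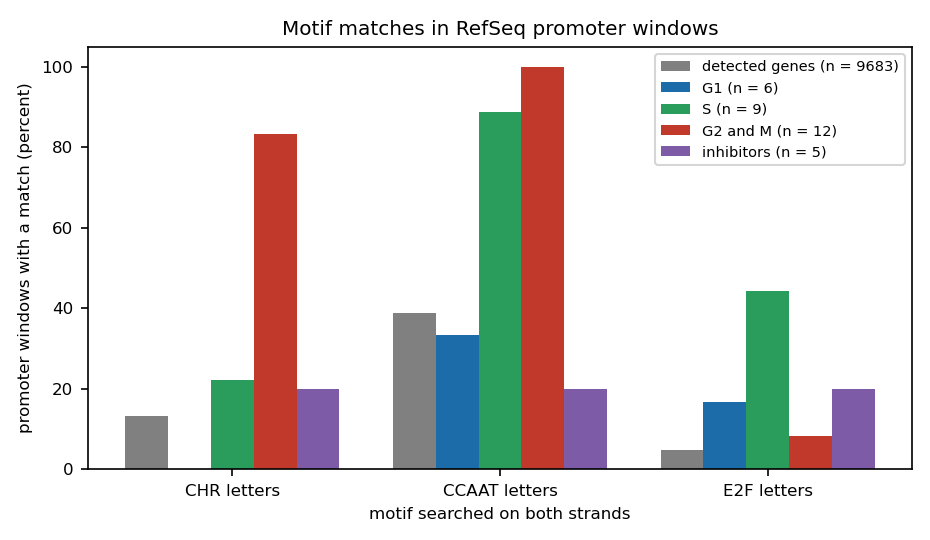
Percent of promoter windows with at least 1 match to the CHR, CCAAT and E2F letters on either strand, for detected genes (grey, n = 9683) and for the members of each role (coloured). The G2 and M bars reach 83.3% for CHR and 100% for CCAAT, and the S bar reaches 44.4% for E2F.

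The upstream bases of 2 S genes and 2 G2 and M genes are shown as examples rich in kinds of match, which need not be typical of their classes. They were chosen by the number of kinds of match before the start, with ties, of which there were several, going to the gene of higher mean TPM. Each is printed 5′ to 3′ on the strand of the gene, with every match in capitals. Bases in an annotated exon were left off, which removed 26 from Cdk1 and kept Mcm7, whose window lies in an exon, from being shown. The positions are chr1:128359706-128359955 for Mcm6, chr6:88898781-88899030 for Mcm2, chr10:69352939-69353162 for Cdk1 and chr11:99024190-99024439 for Top2a, all on the minus strand of GRCm38.p6, from RefSeq.
Mcm6: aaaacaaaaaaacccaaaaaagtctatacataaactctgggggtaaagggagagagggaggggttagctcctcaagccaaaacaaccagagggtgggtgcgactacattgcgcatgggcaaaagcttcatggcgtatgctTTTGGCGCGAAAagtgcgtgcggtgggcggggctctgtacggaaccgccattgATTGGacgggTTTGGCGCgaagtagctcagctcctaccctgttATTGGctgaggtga
Mcm2: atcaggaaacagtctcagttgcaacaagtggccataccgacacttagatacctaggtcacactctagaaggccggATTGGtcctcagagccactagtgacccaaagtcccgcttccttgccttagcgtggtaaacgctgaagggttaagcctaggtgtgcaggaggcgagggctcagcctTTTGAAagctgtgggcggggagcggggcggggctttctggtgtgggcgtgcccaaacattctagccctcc
Cdk1: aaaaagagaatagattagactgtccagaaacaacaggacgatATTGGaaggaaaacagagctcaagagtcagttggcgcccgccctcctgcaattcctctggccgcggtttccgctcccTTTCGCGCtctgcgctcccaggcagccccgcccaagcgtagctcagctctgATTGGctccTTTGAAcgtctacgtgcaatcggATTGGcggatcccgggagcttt
Top2a: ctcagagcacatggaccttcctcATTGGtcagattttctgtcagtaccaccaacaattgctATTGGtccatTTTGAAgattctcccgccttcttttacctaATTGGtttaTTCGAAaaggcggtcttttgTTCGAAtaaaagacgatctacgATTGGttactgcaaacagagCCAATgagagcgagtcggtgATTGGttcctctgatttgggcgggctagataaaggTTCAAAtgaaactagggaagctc

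Mcm6 carries 3 E2F matches, of which 2 overlap in the longest run of capitals, and 2 CCAAT matches read on the other strand as ATTGG. Mcm2, by contrast, carries 1 CCAAT and 1 CHR match and no E2F letters. Cdk1 holds all 3 kinds, with the CHR match in the bases shown between a pair of ATTGG boxes, and Top2a has 6 CCAAT and 4 CHR matches. Within the G2 and M class the order by matches and the order by level were alike in part only, and their relation was not tested. Top2a had the most matches and, by all transcripts, the highest level, at 35.7 TPM. By coding transcripts alone Top2a was at 21.8 TPM, under Mki67 at 27.7 TPM. The whole window of Cdk1, with 2 CHR, 3 CCAAT and 1 E2F matches, went with 23.2 TPM. Other genes did not follow the number of matches. Whole windows of Mki67 and Ccnb2 both held 2 CHR and 3 CCAAT matches at mean levels of 27.7 and 10.8 TPM. Those of Aurka, Bub1 and Cenpf held 1 CHR and 2 CCAAT matches at 4.80, 3.70 and 9.20 TPM. Kif11 and Plk1, with 1 of each, were at 7.55 and 6.71 TPM.

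The libraries were compared by the log2 ratio of replicate 2 over replicate 1 after TMM scaling of the counts, over the 12256 genes that averaged 100 counts or more. None of the 41 members was over 2-fold apart, as against 0.718% of all those genes. The ratios ran from -0.24 (Rrm2) to 0.31 (Plk1), and 27 of 41 lay between the lower and upper quartile of all genes, which were -0.10 and 0.13. By count ratio 24 of 41 were lower in replicate 2, beside 44.7% of all genes, and by TPM also 24 of 41, beside 49.8%. The direction by TPM was opposite to that by counts for 8 members (Ccnd2, Cdk6, Ccne1, Mcm2, Top2a, Ccnb1, Kif11 and Cenpe), so small differences of these genes have no settled sign. Scaling to the spike-ins shifted the median of all genes by -0.14.

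The S phase genes moved one way. All 10 were lower in replicate 2 by count ratio, with a median of -0.08 and a range from -0.24 to -0.03, while the median of all genes was 0.02. By TPM 9 of 10 were lower, the exception being Mcm2. The count stayed at 10 of 10 with DESeq2 size factors, which raised every member's ratio by 0.025. It was also 10 of 10 with library size and spike-ins. These 2 scalings shifted every member's ratio by -0.05 and -0.14, so the count could not fall under them. With spike-ins the median of all genes was itself -0.12. In the other quantification the count was 9 of 10, where Mcm5 was the exception. Each difference was small, and only for Rrm2 (-0.24, from 905 and 865 counts, 95% interval -0.38 to -0.11) and Mcm7 (-0.18, -0.30 to -0.06) did the exact interval of the ratio leave out 0. Such intervals cover counting error only. They left out 0 for 11 of the 41 members, 4 of them below 0, beside 38.6% of all 12256 genes and 15.5% below 0, so such calls were not more common among the members. Among the other S phase genes, 20 of 31 with enough counts were lower in replicate 2, with a median of -0.09.

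The other classes were split. Of the G1 genes 2 of 9 were lower in replicate 2, of the G2 and M genes 7 of 15, and of the inhibitors 5 of 7. These counts moved with the scaling, to 7 of 9, 11 of 15 and 6 of 7 with spike-ins (34 of 41 over all members) and to 1 of 9, 4 of 15 and 5 of 7 with DESeq2 size factors. The median of all genes moved as well, from 0.02 to -0.12 with spike-ins and to 0.05 with DESeq2 size factors. Set against that median, 28 of 41 members were lower with TMM scaling and again 28 of 41 with spike-ins. Within G2 and M, Mki67 (-0.15, interval -0.20 to -0.11) and Cdk1 (-0.17, -0.31 to -0.03) were lower in replicate 2. On the other side, Plk1 (0.31, 0.10 to 0.52), Kif20a (0.24, 0.08 to 0.39) and Bub1b (0.18, 0.04 to 0.33) were higher. Cdkn1b was higher by 0.23 (0.12 to 0.34) and Ccnd3 by 0.17 (0.12 to 0.22). These genes, Rrm2 and Mcm7 kept their sign under all 3 other scalings and in the other quantification. For Mki67, Cdk1, Rrm2 and Mcm7, library size and spike-ins could not change the sign, since both lowered every member's ratio. For the genes that were higher, DESeq2 size factors could not change it. Ccnd1 (0.13) and Cdk4 (0.11), whose intervals also left out 0, turned to -0.01 and -0.03 with spike-in scaling.

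**Figure D4:**
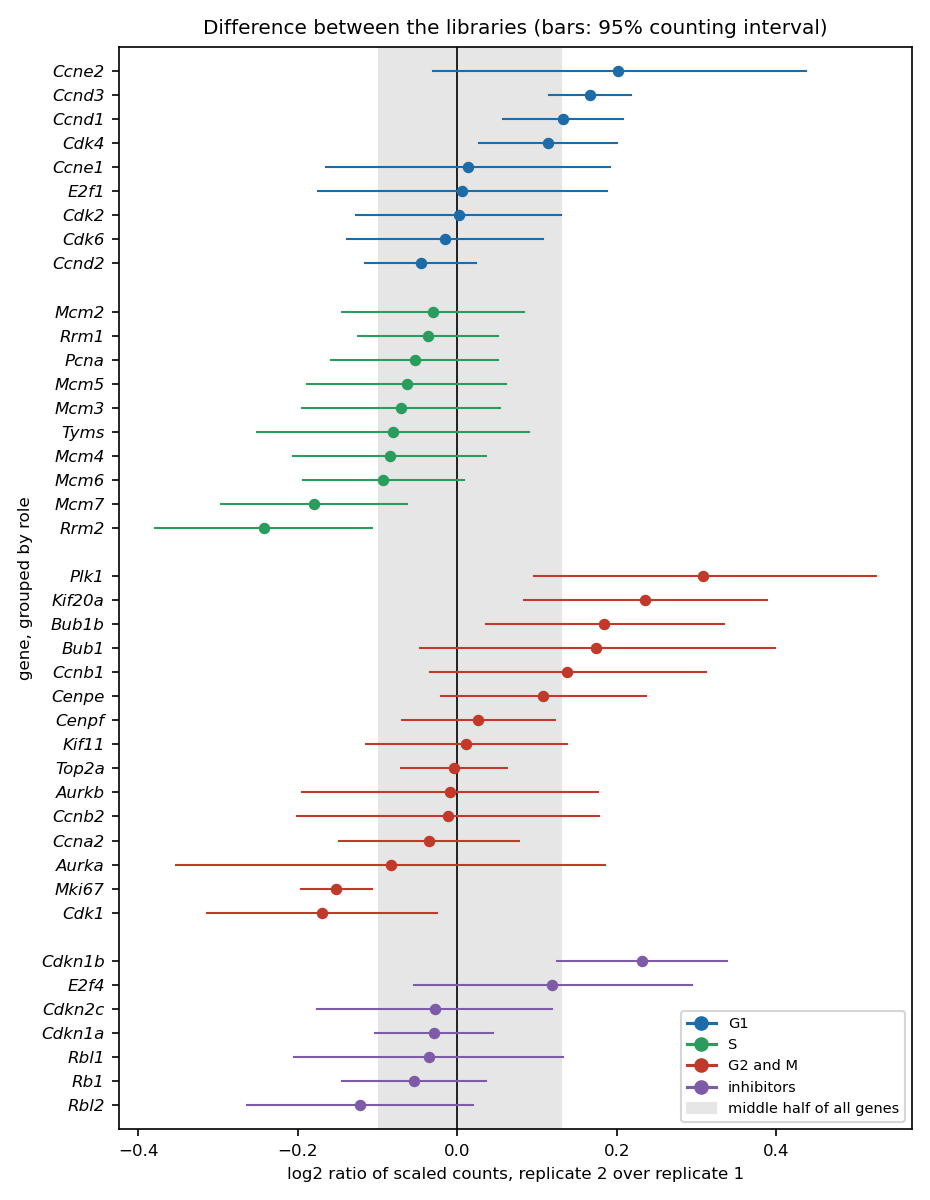
Log2 ratio of scaled counts, replicate 2 over replicate 1, for the 41 genes by role, with 95% counting intervals as bars and the range between the quartiles of all genes (-0.10 to 0.13) shaded. The 10 S phase points all lie left of 0, whereas the other roles fall on both sides.

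Some cell type markers moved between the same libraries by more than the members did. The red cell markers were lower in replicate 2 in 7 of 7, with log2 ratios from -3.52 to -1.56, the neutrophil and marrow markers in 7 of 7, from -3.03 to -1.85, and the tendon markers in 5 of 5, from -1.18 to -0.19. The 7 satellite cell and myoblast markers summed to 143 TPM in replicate 1 and 153 TPM in replicate 2, with 1 of 7 lower in replicate 2. The 6 fibroblast markers summed to 2539 and 2518 TPM, most of it Col3a1 (2084.60 and 2084.62 TPM). Of these 6 markers 3 were lower in replicate 2, with log2 ratios from -0.16 to 0.28. Macrophage markers summed to 73.5 and 71.8 TPM, with log2 ratios from -0.15 to 0.17. Of 5 endothelial markers only Egfl7 was lower in replicate 2 (77.1 and 50.9 TPM), with a median log2 ratio of 0.12 for the list. Schwann cell markers were higher in replicate 2 in 5 of 5, from 0.22 to 0.65, and muscle fibre markers in 6 of 6, from 0.16 to 0.34. The widest ratios were those of the bone and cartilage markers, with 6 of 7 lower in replicate 2 (-7.98 to 0.08). Liver markers were higher in 5 of 5, from 3.35 to 3.87. The part of these cells in the lower S phase values of replicate 2, and in the ratios of Mki67 and Cdk1, was not tested.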

How the data were processed

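Total RNA-seq of 2 libraries of 1 group was analysed. Per the file headers and accompanying notes, the authors deposited, for each library, gene and transcript tables of expected counts and TPM on mm10 with GENCODE M21 genes, and a second transcript table of estimated counts and TPM made without an alignment file, which is here called the other quantification and was summed per gene. Neither the aligner nor the quantification programs nor the use of strand are named: not given in the sources used here. The gene tables also hold the deposited posterior standard deviation of each count, which reached at most 0.967% of a member's count, and 35 of 41 members had exactly whole counts in both libraries. The labels call the libraries biological replicates, without saying more on the animals' origin than 1 donor record. Both parental genomes were quantified against mm10, and alleles were not separated.

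From the rounded expected counts, edgeR 4.0.16 under R 4.3.3 gave TMM factors (1.02 and 0.983), from genes averaging 10 counts or more, and log2 ratios with a prior count of 2. The calculation of ratios was run on simulated counts, where a first version of the check missed its limit and was replaced by one over repeated draws. That check covers medians over sets of genes and not the ratio of a single gene. Intervals of a ratio are exact 95% binomial intervals of the counts. TPM were used as deposited. DESeq2 1.42.0 gave alternative size factors. Python 3.11.15 did the rest, with pandas 2.3.3, numpy 2.4.6, matplotlib 3.10.9 and scipy 1.17.1. Named genes were all 41 members, the 3 other cycle genes of highest mean TPM in each class, each one under 1 TPM in a library, pseudogenes named after a member, the leading transcript of each member, and the members with most kinds of promoter motif. Overlapping genes, Btg1, Cdkn2d, Egfl7 and the markers at 0 were named after their values were seen. The members, lists and alternatives were chosen with earlier results of these data known, and the alternative of coding transcripts alone was added after seeing the data. Protein sequences were not used here.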

Additional observations from a re-analysis of the deposited data

How the results depend on the processing

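Class medians depended on how TPM was made. The G1 median of 14.9 TPM was 24.2 in the other quantification, 16.4 without spike-ins and mitochondrial genes, 30.6 with Ccne1, Ccne2, Cdk2 and E2f1 moved to S, and 11.0 for coding transcripts alone. The S median of 16.6 TPM became 29.5 in the other quantification and 13.8 for coding transcripts. The G2 and M median of 9.20 TPM became 15.2, 10.1 without spike-ins and mitochondrial genes, and 7.74 for coding transcripts, and the inhibitor median of 14.5 TPM became 21.1, 16.0 and 14.3. In the other quantification TPM were higher over all detected genes, by 1.74 times in the median, and over the members by 1.70 times. Without replicate 1 or 2 in turn, the medians ranged from 14.8 to 14.9 (G1), 15.1 to 18.0 (S), 8.65 to 9.75 (G2 and M) and 14.4 to 14.6 TPM (inhibitors), and all 41 genes stayed detected. At a minimum of 10 TPM 26 of 41 remained detected, and at 5 TPM 37. The share of all genes was not taken at these minimums, so the counts have no background to be read against.

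The median log2 ratio of the members, -0.0153, turned to 0.00977 with DESeq2 size factors and was -0.156 with spike-ins. The G1 median of 0.01 turned to -0.0361 with library size and -0.127 with spike-ins, and the G2 and M median of 0.01 to -0.0379 and -0.129. Single members changed sign in 4 cases with DESeq2, 5 with library size, 10 with spike-ins and 6 in the other quantification. No member was over 2-fold apart under any scaling, prior count or count minimum run. No paired analysis was possible because there is 1 group, and leaving out a library leaves no ratio. Depth limits the lowest member, Aurka, to 225 counts in replicate 1.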
